A study of Mus musculus with 11 samples.

Results

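Raptor-deficient β-cells of diabetic mice were compared with WT β-cells, which took 7 of the 11 RNA-sequencing libraries of the series. The libraries were chosen by their labels alone, 4 from diabetic βRapKOGFP mice (RIP-Cre; Raptor-/-; Rosa26GFP) and 3 from WT littermates (RIP-Cre; Raptor+/+; Rosa26GFP). All mice were 8-week-old males on a mixed C57BL/6 and 129SV background, and none of the 7 libraries came from an insulin-treated mouse. Both groups therefore carried Cre under the rat insulin promoter and the GFP reporter, so that GFP marked every cell in which that promoter had once been active, whatever the cell made at the time of collection. GFP+ cells were sorted by FACS from dispersed islets, and their poly-A RNA was sequenced. The remaining 4 libraries, from euglycemic βRapKOGFP mice that had carried an insulin pump, were used to estimate the spread and are set beside the results only where stated. The labels do not say that libraries of a group came from separate mice, so p-values measure the spread between these libraries.

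mTORC1 is a nutrient-sensing kinase complex in which Raptor is the scaffold that brings substrates to the kinase mTOR. It promotes translation, ribosome production, lipid synthesis and mitochondrial activity and restrains autophagy. A mature β-cell takes up glucose through GLUT2, phosphorylates it and burns it in mitochondria, and the resulting ATP closes potassium channels and triggers the release of insulin granules. It also keeps silent a set of genes used by most other tissues, often called disallowed genes.

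Values are FPKM as the authors deposited them, that is, sequenced fragments of a gene divided by transcript length and by the number of mapped fragments. The depth inferred from the low values was 11869000 to 13732000 fragments in WT and 9772000 to 13809000 in diabetic libraries, at which 1 fragment on a 1-kilobase transcript is worth 0.0724 to 0.102 FPKM. Diabetic replicate 1 stood apart from the other libraries. In it 25711 genes were above 0, against 15229 to 16597 in the other 6, and 7332 of them were above 0 in that library only, at a median of 0.263 FPKM. The main differences are therefore also given without it. WT replicate 1 stood apart as well. It had the lowest limma library weight of the 7 (0.284, against 0.705 to 2.87), and across genes its log2 values had a correlation of 0.974 with each of the other two WT libraries, which had one of 0.990 with each other, and of 0.985 with euglycemic replicate 3. *Rptor*, which encodes Raptor (ENSMUSG00000025583, chr11:119602905-119899576 in GRCm38, as for all gene positions here), was at 0.948, 1.37 and 1.79 FPKM in the 3 WT libraries and at 0.938, 0.831, 0.507 and 0.485 in the 4 diabetic libraries. Every diabetic value lay below every WT value, although the highest diabetic and the lowest WT value nearly touched. The mean was 1.37 ± 0.422 FPKM (SD, n = 3) in WT and 0.690 ± 0.229 (SD, n = 4) in diabetic libraries, and an exact permutation test (two-sided) gave p = 0.0571, where 0.0286 is the smallest p that 4 against 3 libraries allow. After rescaling the p was 0.114 (TPM) and 0.143 (median of ratios), with lower means in diabetic libraries in both. *Rptor* was too low for the fit across all genes, and a value per gene does not show the deleted exon by itself. The summed markers of β-cells were high in both groups, but this sum consists mostly of *Ins1*, *Ins2* and *Iapp*. Of the 9 markers, 2 had a higher mean in diabetic than in WT libraries, and *Slc2a2* was lower by the test described below. The summed FPKM of 9 β-cell markers was 157000 to 191000 in WT and 138000 to 206000 in diabetic libraries, and *Ins1* and *Ins2* together made up 34.7 ± 7.80% (SD, n = 3) and 30.9 ± 7.16% (SD, n = 4) of all FPKM.

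To ask which genes differed, log2(FPKM + 1) was fitted with limma over 11251 genes that reached 1 FPKM in at least 3 of the 11 libraries. Differences are given as diabetic minus WT on this log2 scale, which understates the change of low genes. A gene was counted when it differed by 1.5-fold or more with an adjusted p no larger than 0.05. This held for 109 genes (0.969% of those tested), 53 of them higher (0.471%) and 56 lower (0.498%) in diabetic βRapKOGFP cells. This split (48.6% higher) became 62 higher and 35 lower (63.9% higher) after rescaling to TPM. Without diabetic replicate 1 there were 44 such genes, 43 of which were among the 109, so that 66 of the 109 missed the threshold, and all 109 kept their sign. Without WT replicate 1 there were 34, 30 of them among the 109. Of the 109, 18 passed with each of the 7 WT and diabetic libraries left out in turn. The named ones of these are *Slc2a2*, *Slc30a8*, *Cd24a*, *Gadd45g*, *Nqo1*, *Serpina7*, *Gc*, *Cd79a*, *Esm1*, *Ache*, *Pamr1*, *Prss53*, *Rpp25*, *Sorcs2*, *Tmem212*, *Tmem215* and *Wfdc16*. Any other gene described below as rising or falling lost its call, or was no longer tested, without at least 1 library. Leaving out other libraries gave between 23 genes (without WT replicate 2) and 209 (without euglycemic replicate 4). The median difference over all genes tested was 0.01, and 5542 of the 11251 had a difference below 0. A gene under 1 FPKM in every WT library entered the fit through mutant libraries alone, where it reached that level. Counts and medians over lists that hold such genes are therefore descriptions of the members tested, and the number of such genes was 2 to 7 in the hormone, progenitor, α-cell and disallowed lists and 0 to 3 in each of the others. Conversely, a gene under 1 FPKM in every mutant library, such as *Mslnl*, entered the fit through the WT libraries alone. In bulk RNA, fewer cells of a type and less RNA per cell cannot be told apart.

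**Figure D1:**
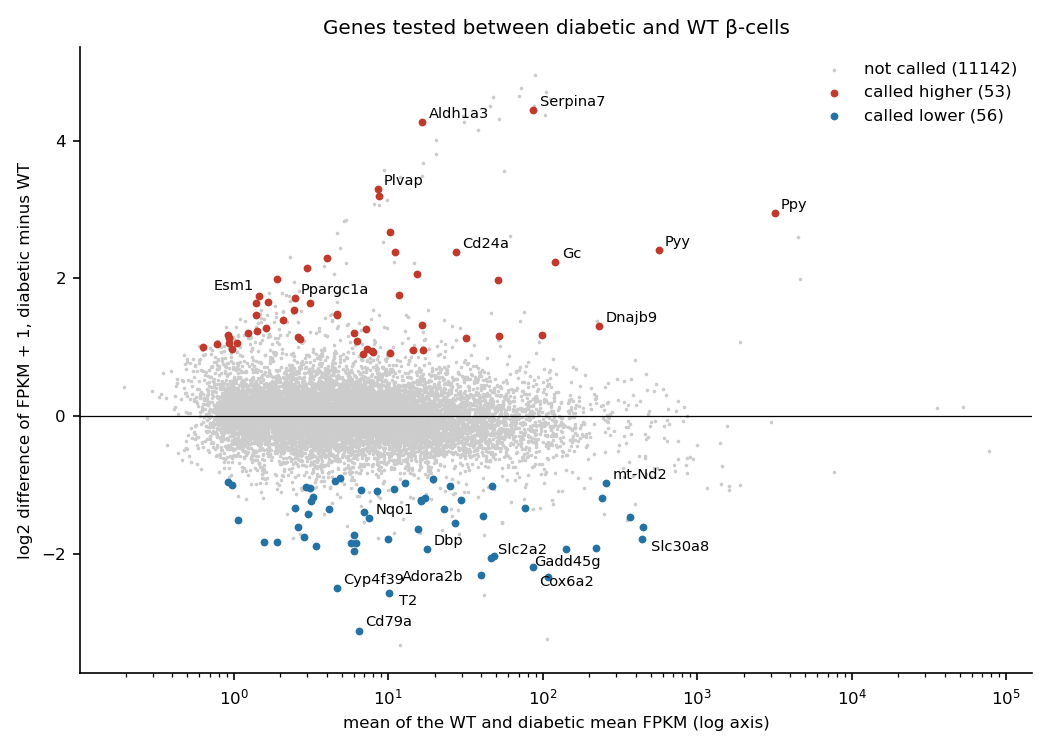
Each gene tested by its mean FPKM over the WT and diabetic group means (horizontal log axis) and its log2 difference, diabetic minus WT (vertical axis), with the 109 genes that passed the test coloured by direction. Among the coloured genes, *Serpina7* and *Aldh1a3* lie at the top and *Cd79a* lies lowest.

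Promoter sequences are shown for 4 genes of the comparison, so that the glucose transporter and a gene near it in size of fall can be read beside genes that rose. They are the 250 bases before the RefSeq start in GRCm38.p6, 5′ to 3′ on the strand of the gene, with capitals marking motifs found on either strand.
Slc2a2, chr3:28697653-28697902, plus strand: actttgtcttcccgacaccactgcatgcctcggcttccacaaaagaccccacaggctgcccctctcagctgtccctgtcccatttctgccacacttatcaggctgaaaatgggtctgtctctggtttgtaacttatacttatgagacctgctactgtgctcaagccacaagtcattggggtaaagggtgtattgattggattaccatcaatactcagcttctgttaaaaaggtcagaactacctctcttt
Gadd45g, chr13:51846425-51846674, plus strand: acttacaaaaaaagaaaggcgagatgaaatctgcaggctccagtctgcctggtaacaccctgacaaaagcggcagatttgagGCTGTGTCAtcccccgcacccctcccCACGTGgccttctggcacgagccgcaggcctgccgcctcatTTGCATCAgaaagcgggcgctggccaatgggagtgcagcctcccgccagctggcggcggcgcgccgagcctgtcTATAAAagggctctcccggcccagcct
Dnajb9, chr12:44210069-44210318, minus strand: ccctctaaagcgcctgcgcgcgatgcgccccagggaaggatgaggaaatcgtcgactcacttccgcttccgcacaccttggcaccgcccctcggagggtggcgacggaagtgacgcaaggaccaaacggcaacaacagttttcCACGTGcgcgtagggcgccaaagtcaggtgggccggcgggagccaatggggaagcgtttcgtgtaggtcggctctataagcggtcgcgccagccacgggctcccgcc
Serpina7, chrX:139085237-139085486, minus strand: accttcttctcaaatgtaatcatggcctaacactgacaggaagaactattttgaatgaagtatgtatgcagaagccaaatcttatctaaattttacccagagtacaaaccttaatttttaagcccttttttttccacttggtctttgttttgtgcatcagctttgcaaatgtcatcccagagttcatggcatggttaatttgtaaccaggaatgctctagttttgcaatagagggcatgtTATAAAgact
The motifs searched, on both strands, were the E-box CACGTG, the NeuroD-type E-box CAGATG, the homeodomain core TAATTA, the cyclic AMP element TGACGTCA, the antioxidant element core TGACNNNGC, the D-box TTATGTAA, the C/EBP-ATF element TGATGCAA, the TATA box TATAAA and the ER stress element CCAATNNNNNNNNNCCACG. In *Gadd45g* the capitals are the antioxidant element core (first letter 168 bases before the start), CACGTG (142), TGATGCAA (101) and TATAAA (27). The *Dnajb9* window held CACGTG 107 bases before the start, and the *Serpina7* window held TATAAA 10 bases before this start and 27 before a second annotated start. No searched motif was in the *Slc2a2* window. Promoters were at hand for 75 of the 109 genes and for 8471 of all genes tested. CACGTG was in 4 of 39 promoters of genes that rose (10.3%), in 3 of 36 of genes that fell (8.33%) and in 10.2% of all. TATAAA was in 7 of the 39 (17.9%), in 4 of the 36 (11.1%) and in 7.32% of all. The antioxidant element core was in 4 of the 39 (10.3%), in 3 of the 36 (8.33%) and in 14.2% of all. Of the others, CAGATG was in 5 of the 39, 4 of the 36 and 11.2% of all, TAATTA in 2, 3 and 3.07%, and TGACGTCA in 2, 0 and 3.41%. TTATGTAA was in 1, 0 and 0.543%, TGATGCAA in 0, 1 and 0.661%, and the ER stress element in 0, 0 and 0.177%. No capitals shown belong to more than 1 motif. These counts describe letters in a window and were not tested.

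Among genes that bring glucose into the β-cell, read its metabolism and release insulin, 21 of 27 had a difference below 0 in diabetic βRapKOGFP cells. Of these 27 tested genes for glucose entry, sensing and secretion control, 7 fell, 1 rose and 19 did not pass the test, and 4 of the 8 that passed did so without diabetic replicate 1 and likewise 4 without WT replicate 1. The median difference over the 27 was −0.61 and −0.60 without diabetic replicate 1. Several of these genes were singled out by the study in these same libraries, so the count is not independent evidence of direction.

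*Slc2a2* (ENSMUSG00000027690, chr3:28697903-28731359), which encodes GLUT2, was at 69.7, 87.0 and 70.0 FPKM in WT and at 16.3, 13.1, 21.4 and 19.4 FPKM in diabetic libraries. The groups were far apart, and the 4 diabetic libraries were close to each other. The ratio of means was 4.31-fold lower in diabetic cells (log2 difference −2.06, standard error 0.25, adjusted p = 0.00254, and −2.03 without diabetic replicate 1). *Slc30a8* (ENSMUSG00000022315, chr15:52295553-52335798), the zinc transporter of the insulin granule, went from 712, 691 and 642 FPKM to 166, 167, 216 and 251 FPKM. Here too all diabetic values lay well under the lowest WT value, and the difference was −1.78 (standard error 0.22, adjusted p = 0.00270). *Gipr*, the receptor for the incretin GIP, was at 15.1, 30.2 and 27.0 FPKM in WT and 6.67, 4.58, 6.46 and 10.1 in diabetic libraries. WT replicate 1 was the lowest of its group and still above every diabetic value, with a difference of −1.65 (adjusted p = 0.0327), which missed the threshold without diabetic replicate 1 (adjusted p = 0.0818). *Trpm5*, a calcium-activated cation channel, fell from 12.5, 9.22 and 6.78 FPKM to 1.37, 1.01, 2.53 and 2.92 FPKM (log2 difference −1.84, standard error 0.28, adjusted p = 0.00915).

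*Sytl4* and *Rab37*, genes of granule docking, fell as well. *Sytl4*, which encodes granuphilin, was at 58.1, 69.6 and 61.5 FPKM in WT and 33.3, 32.1, 28 and 28.9 in diabetic libraries, and *Rab37*, a small GTPase of secretory granules, at 29.0, 35.2 and 35.3 in WT and 11.3, 7.61, 13.4 and 20.1 in diabetic libraries. In both genes the groups did not overlap, with differences of −1.02 (adjusted p = 0.0376) and −1.35 (adjusted p = 0.0450). Neither passed the test without diabetic replicate 1 (adjusted p = 0.0800 and 0.127). *Ppp1r1a*, an inhibitor of protein phosphatase 1, was 2.77-fold lower by the ratio of means (log2 difference −1.47, adjusted p = 0.0238, and adjusted p = 0.0636 without diabetic replicate 1). *Sytl4* and *Rab37* were the only ones of 22 tested genes of granule exocytosis that passed, and the median difference of the 22 was −0.10. The SNARE gene *Snap25*, at 46.9, 31.2 and 34.1 FPKM in WT and 35.8, 25.3, 47.8 and 42.0 in diabetic libraries, differed by −0.00 (adjusted p = 0.998), and *Stx1a* by −0.37 (adjusted p = 0.551). *Cd24a*, a small surface glycoprotein, was the 1 gene of the secretion list that rose, from 11.2, 7.01 and 5.70 FPKM to 48.4, 27.0, 43.3 and 68.1 FPKM. Its lowest diabetic value was more than its highest WT value, and the difference was 2.38 (standard error 0.30, adjusted p = 0.00301).

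Other genes of glucose sensing did not pass. *Ucn3*, a peptide of mature β-cells, ranged from 479 to 911 FPKM in WT and from 189 to 515 in diabetic libraries, and the groups overlapped (−0.89, adjusted p = 0.407). *Ero1lb*, an oxidase of the ER in insulin folding, was at 725, 598 and 662 FPKM in WT and 455, 391.7, 361 and 354 in diabetic libraries, without overlap, but its difference of −0.76 had an adjusted p of 0.111. In all, 14 of the 27 had groups that did not overlap with diabetic values lower, a pattern found in 6.88% of all genes tested, and 2 had diabetic values higher, against 6.67% of all.

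**Figure D2:**
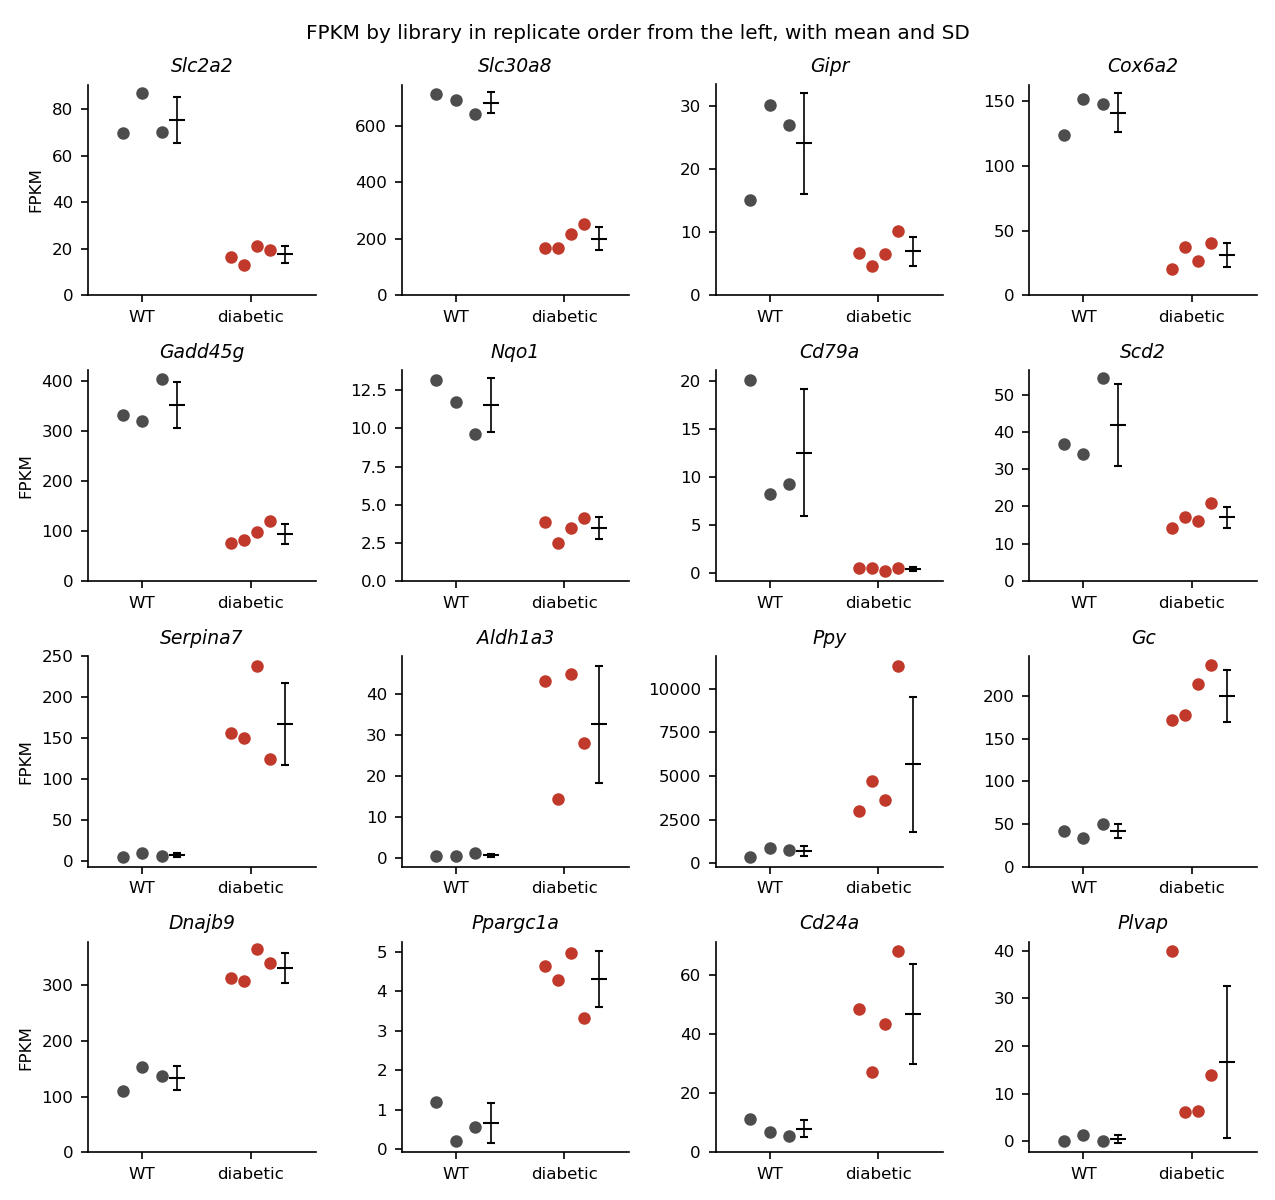
FPKM of 16 genes in each WT and diabetic library (1 point per library in replicate order, mean and SD of each group beside them, linear vertical axis in each panel). *Slc2a2* and *Slc30a8* show tight groups far apart, and *Plvap* and *Aldh1a3* are near 0 in WT and spread widely among the diabetic libraries.

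None of 23 tested transcription factors of β-cells passed the test in either direction, by limma with a count of 3 at unadjusted p of at most 0.05 (a level reached by 11.9% of all genes tested), and the median difference was −0.01 (−0.12 without diabetic replicate 1). *Pdx1*, a master regulator of β-cell identity, was at 99.6, 76.6 and 96.0 FPKM in WT and 40.6, 39.0, 63.0 and 55.6 in diabetic libraries. The groups did not overlap, and the difference of −0.88 had an adjusted p of 0.152. *Nkx6-1* was at 43.8, 57.2 and 55.2 FPKM in WT and 30.2, 39.9, 42.3 and 37.0 in diabetic libraries, also without overlap (−0.47, adjusted p = 0.499), as was *Neurod1* (−0.39, adjusted p = 0.454). *Mafa*, a factor of mature β-cells, ranged from 11.9 to 62.2 FPKM in WT and lay at 24.9 to 45.3 in diabetic libraries, inside the WT range (0.05, adjusted p = 0.984), and *Mlxipl*, which encodes ChREBP, differed by −0.18 (adjusted p = 0.856). The insulin genes themselves did not pass. *Ins1* was at 71701, 97248 and 101797 FPKM in WT and 53562, 85195, 55011 and 61613 in diabetic libraries (−0.51, adjusted p = 0.585), and *Ins2* at 37819, 63931 and 47696 in WT and 53841, 80670.4, 40001 and 47196 in diabetic libraries (0.14, adjusted p = 0.937), with overlap in both. *Iapp*, co-secreted with insulin, overlapped as well (0.11, adjusted p = 0.920).

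Of 17 genes for prohormone processing and granins, *Sytl4* and *Slc30a8* fell and *Vgf* rose, and without diabetic replicate 1 *Slc30a8* alone passed. *Vgf*, a granin-like precursor of secreted peptides, was at 2.24, 4.02 and 5.44 FPKM in WT and 10.9, 10.9, 12.2 and 7.90 FPKM in diabetic libraries. The highest WT value was below the lowest diabetic value (log2 difference 1.27, standard error 0.27, adjusted p = 0.0450, and adjusted p = 0.127 without diabetic replicate 1). The convertases that cut proinsulin did not pass. *Pcsk1* was at 142, 158 and 155 FPKM in WT and 182, 117, 150.4 and 105 in diabetic libraries (−0.16, adjusted p = 0.884), *Pcsk2* differed by 0.22 (adjusted p = 0.764) and the carboxypeptidase *Cpe* by −0.08 (adjusted p = 0.942).

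*Aldh1a3* of the endocrine progenitor and duct genes, and *Serpina7* of the genes that β-cells normally keep silent, were among the largest rises. Of 22 progenitor and duct genes, 15 were tested, 5 of which, *Dlk1* among them, were under 1 FPKM in every WT library. Of the 15, 3 rose and 12 did not pass, with a median difference of 0.68. Without diabetic replicate 1 the median was 0.45 and 1 of the 3, *Aldh1a3*, passed, and without WT replicate 1 none did (adjusted p = 0.0585 for *Aldh1a3*). *Aldh1a3* (ENSMUSG00000015134, chr7:66390890-66427517), a retinaldehyde dehydrogenase described in dedifferentiated β-cells, was at 0.400, 0.386 and 1.11 FPKM in WT and at 43.3, 14.4, 44.96 and 28.2 FPKM in diabetic libraries. It was near or below 1 FPKM in WT and differed 3-fold among the diabetic libraries, of which replicate 2 was the lowest. The difference was 4.27 (standard error 0.65, adjusted p = 0.00915) and 4.10 without diabetic replicate 1. *Spp1*, the secreted phosphoprotein osteopontin, rose from 2.93, 6.00 and 5.73 FPKM to 21.8, 13.2, 20.2 and 19.04 FPKM (1.76, adjusted p = 0.0327, and 0.0912 without diabetic replicate 1), with 18.8% of its exon bases shared with another gene on the same strand. The 7 duct markers, *Spp1* among them, summed to 61.6 to 76.2 FPKM in WT and 63.5 to 94.1 in diabetic libraries. *Dlk1*, an imprinted Notch-family ligand, rose from 0.169, 0.196 and 0.0703 FPKM to 2.39, 1.10, 2.37 and 0.896 FPKM (1.18, adjusted p = 0.0450, and 0.130 without diabetic replicate 1), and it was the 1 gene of 15 tested imprinted genes to pass. *Neurog3*, the factor that starts endocrine development, was at 0, 0.820 and 0.144 FPKM in WT and 1.93, 0.929, 3.29 and 1.88 in diabetic libraries and did not pass (1.18, adjusted p = 0.401), nor did *Sox9* (0.82, adjusted p = 0.274).

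Of 36 disallowed genes, 13 were tested, 22 were below the filter and 1 symbol was not matched. Of the 13, 7 were under 1 FPKM in every WT library, *Gfra1*, *Trf*, *Ldha* and *Acot7* among them, so that the filter favoured rises in this list. Of the 13, 5 rose and 8 did not pass, and the 5 became 3 without diabetic replicate 1 and 2 (*Serpina7* and *Gucy2c*) without WT replicate 1. The list was taken in part from genes that the study named from these libraries, so its count is not independent evidence of direction. The median difference was 1.10, and it was 0.89 without diabetic replicate 1, 1.75 with TPM, 1.85 at a minimum of 5 FPKM and 2.34 at a pseudocount of 0.1. *Serpina7* (ENSMUSG00000031271, chrX:139079257-139085236), which encodes thyroxine-binding globulin, had the largest difference among the genes that passed on the log2(FPKM + 1) scale, going from 4.76, 9.59 and 5.93 FPKM in WT to 156, 149.5, 239 and 124 FPKM in diabetic libraries. All 4 diabetic libraries were above 100 FPKM and all 3 WT libraries under 10, and the mean was 24.7-fold higher (log2 difference 4.44, standard error 0.37, adjusted p = 0.000232). By the ratio of means *Aldh1a3* (51.8-fold), *Plvap* (34.3-fold) and others were further apart. *Gucy2c*, the guanylyl cyclase receptor of the gut peptide guanylin, rose from 5.89, 4.12 and 4.62 FPKM to 44.4, 20.7, 25.3 and 12.6 FPKM (2.06, adjusted p = 0.0140). *Aass*, the first enzyme of lysine breakdown, rose from 0.554, 1.01 and 1.24 FPKM to 6.84, 2.55, 6.89 and 4.81 FPKM (1.64, adjusted p = 0.0327, and 0.0958 without diabetic replicate 1). *Gfra1*, a co-receptor for the neurotrophic factor GDNF, rose from 0.0420, 0.160 and 0.280 FPKM to 1.17, 1.14, 1.74 and 1.53 FPKM (1.04, adjusted p = 0.0177), but it entered the fit through the diabetic libraries alone. *Trf*, which encodes transferrin, differed by 0.97 (adjusted p = 0.0450, and 0.118 without diabetic replicate 1), with 63.5% of its exon bases shared with another gene, whose reads cannot be told apart.

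Other well-known disallowed genes did not pass. *Ldha*, the lactate dehydrogenase that makes lactate, was at 0.0793, 0.422 and 0.0804 FPKM in WT and 3.24, 1.23, 2.13 and 0.403 in diabetic libraries, and diabetic replicate 4 fell inside the WT range (1.10, adjusted p = 0.164). *Hk1*, the high-affinity hexokinase, and *Slc16a1*, the lactate transporter MCT1, were below the level of the fit, at 0.750, 0.273, 0.105 and 0.514 and 0.504, 0, 0.409 and 1.18 FPKM in diabetic libraries, with exact permutation p = 0.0571 and 0.143 (two-sided, 3 against 4 libraries). The mitochondrial ornithine aminotransferase *Oat* differed by 1.04 (adjusted p = 0.148) and the acyl-CoA thioesterase *Acot7* by 0.91 (adjusted p = 0.133).

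Of 10 tested islet hormones, 2 of them (*Cck* and *Gast*) under 1 FPKM in every WT library, *Ppy* and *Pyy* rose and 8 did not pass, with a median difference of 1.24 (1.20 without diabetic replicate 1). *Ppy*, which encodes pancreatic polypeptide, was at 364, 909 and 782 FPKM in WT and 3007, 4709, 3606 and 11315 FPKM in diabetic libraries. Diabetic replicate 4 was the highest, and every diabetic library was above every WT library (log2 difference 2.94, standard error 0.50, adjusted p = 0.0177). *Pyy*, which encodes peptide YY, rose from 149, 198 and 155 FPKM to 668, 668, 831 and 1664 FPKM, again highest in diabetic replicate 4 (2.41, adjusted p = 0.0103). Without WT replicate 1 neither passed (adjusted p = 0.0879 and 0.0585). *Gcg*, the glucagon gene, was at 867, 734 and 2117 FPKM in WT and 9077, 4571, 3432 and 14073 in diabetic libraries. The groups did not overlap, and the difference of 2.60 had an adjusted p of 0.0658. *Sst*, the somatostatin gene, was at 1854, 2469 and 1149 FPKM in WT and 5334, 4868, 7392 and 12069 in diabetic libraries (1.995, adjusted p = 0.0504). *Cck*, which encodes cholecystokinin, was listed at 0 in the 3 WT libraries and at 2.04, 3.13, 8.13 and 0.235 FPKM in the diabetic ones, with an adjusted p of 0.309. *Gcg*, *Sst*, *Ppy* and *Pyy* together took 0.970 ± 0.179% (SD, n = 3) of all FPKM in WT and 5.65 ± 2.84% (SD, n = 4) in diabetic libraries.

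Of 28 genes of α-cells, 17 were tested and *Pyy* was the only one to pass. Of the 17, 7 were under 1 FPKM in every WT library, *Etv1* and *Tspan12* among them. The median difference of the 17 was 1.08 (0.93 without diabetic replicate 1). Some of these genes, such as *Etv1* and *Tspan12*, were named by the study in these libraries. *Etv1*, an ETS transcription factor, was at 0.486, 0.740 and 0.734 FPKM in WT and 2.78, 1.82, 3.18 and 2.94 in diabetic libraries (1.14, adjusted p = 0.0564). The glutamine transporter *Slc38a5* was at 6.70, 4.58 and 3.73 FPKM in WT and 13.98, 9.17, 10.6 and 12.4 in diabetic libraries (1.08, adjusted p = 0.0564). Neither gene overlapped between the groups, and neither did the chromatin remodeller *Smarca1* (1.23, adjusted p = 0.0702). *Tspan12*, a tetraspanin, had 1 diabetic library inside the WT range (1.51, adjusted p = 0.0978). *Irx1*, an α-cell transcription factor, was near 0 throughout. Of 7 δ-cell genes 4 were tested, with a median difference of 1.44, and none passed, with 3 at an unadjusted p of at most 0.05 by limma. *Rbp4*, a retinol carrier, was at 46.8, 42.8 and 25.4 FPKM in WT and 95.6, 71.0, 105 and 185 in diabetic libraries (1.504, adjusted p = 0.0912), and *Hhex*, the δ-cell transcription factor, differed by 1.38 (adjusted p = 0.366).

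Marker sums of these cell types consist mostly of the hormones themselves and are no separate measure. The summed FPKM of 6 α-cell markers was 1050 to 2440 in WT and 3930 to 14700 in diabetic libraries, that of 4 δ-cell markers 1180 to 2510 and 4940 to 12300, and that of *Ppy* and *Pyy* 513 to 1110 and 3670 to 13000. Their part in these rises was not tested. The 16 acinar markers summed to 3.60 to 58.3 FPKM in WT and 11.9 to 3540 in diabetic libraries, lowest in diabetic replicate 4. *Cela1*, an elastase on the α-cell list, was at 1.06, 2.75 and 4.75 FPKM in WT and 231, 171, 151 and 13.3 in diabetic libraries, with WT replicate 3 highest and diabetic replicate 4 lowest of their groups as in the acinar sum, and did not pass (4.77, adjusted p = 0.0992). Leukocyte markers summed to 38.9 to 46.7 FPKM in WT and 77.2 to 202 in diabetic libraries, with *Cd79b* and *Cd3e* at 0 in all 7.

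**Figure D3:**
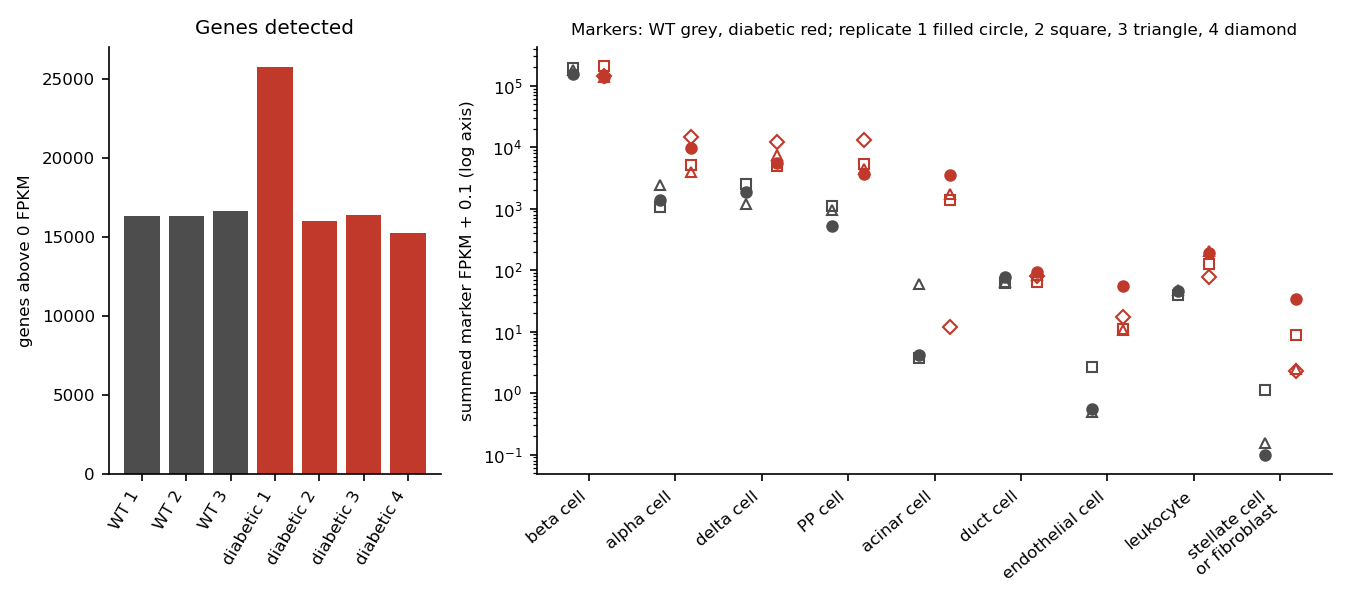
Number of genes above 0 FPKM (bars) and summed FPKM of cell type markers (1 point per library, on a log axis after adding 0.1) in each WT and diabetic library. Diabetic replicate 1 stands out in the number of genes above 0. The α-cell, δ-cell, PP-cell, endothelial, leukocyte and stellate-cell or fibroblast sums of all 4 diabetic libraries lie above those of WT.

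Of 10 endothelial markers, *Plvap* and *Esm1* were tested, and *Esm1* entered the fit through the diabetic libraries alone. *Plvap*, which forms the diaphragms of fenestrated capillaries, was at 0, 1.38 and 0.0732 FPKM in WT and 39.9, 6.14, 6.36 and 14.02 FPKM in diabetic libraries. Diabetic replicate 1 was the highest by far, and the lowest diabetic value was above the highest WT value (log2 difference 3.29, standard error 0.57, adjusted p = 0.0177, and 2.76 without diabetic replicate 1). *Esm1*, a proteoglycan of endothelial tip cells, rose from 0, 0.361 and 0 FPKM to 4.17, 2.44, 2.76 and 1.84 FPKM (1.74, adjusted p = 0.00475), and *Sparcl1*, a matrix protein, from 0, 0.191 and 0.0835 FPKM to 5.15, 1.10, 1.78 and 2.78 FPKM (1.65, adjusted p = 0.0306). Like *Esm1*, *Sparcl1* entered the fit through the diabetic libraries alone, so the p-values of these 2 genes support nothing by themselves. The summed FPKM of 10 endothelial markers was 0.388 to 2.51 in WT and 10.5 to 54.2 in diabetic libraries, or 10.5 to 17.2 without replicate 1. The defining markers were low. *Cdh5*, which encodes VE-cadherin, and the VEGF receptor *Kdr* were at 0 in the WT libraries and at 0.443, 0.333, 0.0726 and 0.162 and 2.88, 0.286, 0.0675 and 0 FPKM in the diabetic ones (exact permutation p = 0.0571 and 0.257, two-sided), and *Pecam1* was at 0.0487, 0.00939 and 0.00822 FPKM in WT and 1.35, 0.285, 0.266 and 0.251 in diabetic libraries (exact permutation p = 0.0571, two-sided). The 8 markers of stellate cells or fibroblasts summed to 0 to 1.03 FPKM in WT and 2.16 to 33.3 in diabetic libraries, or 2.16 to 8.74 without replicate 1, which was the highest. The part of endothelial or stellate-cell RNA in these rises was not tested. *Anxa2*, a membrane-binding annexin, rose from 0.214, 0.309 and 0.217 FPKM to 4.89, 2.98, 1.77 and 2.70 FPKM (1.66, adjusted p = 0.0164) and the caveolin *Cav2* from 0.942, 0.497 and 0.721 FPKM to 6.27, 2.86, 2.93 and 4.63 FPKM (1.54, adjusted p = 0.0184). In both, and in *Sparcl1*, diabetic replicate 1 was the highest library, and without it the adjusted p was 0.0386, 0.0523 and 0.0486.

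Transcripts of the mitochondrial genome had lower values in diabetic than in WT libraries. All 13 protein genes of the mitochondrial genome had a difference below 0, with a median of −0.82 (−0.75 without diabetic replicate 1, and −0.75 after rescaling to TPM), 12 had an unadjusted p of at most 0.05 (of all genes tested, 5.74% were at this level and below 0) and in 11 the groups did not overlap (with diabetic values lower, 6.88% of all genes tested). *mt-Nd2*, a subunit of complex I, was the 1 that passed, at 387, 367 and 272 FPKM in WT and 130.4, 198, 174 and 192 FPKM in diabetic libraries. The lowest WT library lay above the highest diabetic one (log2 difference −0.98, standard error 0.21, adjusted p = 0.0450), and the adjusted p was 0.136 without diabetic replicate 1 and 0.133 without WT replicate 1. *mt-Nd5* was at 461, 439 and 409 FPKM in WT and 189, 209.6, 285 and 273 in diabetic libraries (−0.88, adjusted p = 0.0579). The subunits of cytochrome c oxidase *mt-Co1* (−1.02, adjusted p = 0.154) and *mt-Co3* (−1.01, adjusted p = 0.124) did not overlap between groups either. The 13 genes share 1 genome and its transcripts, so they are not independent measurements. Together they took 2.88 ± 0.575% (SD, n = 3) of all FPKM in WT and 1.67 ± 0.179% (SD, n = 4) in diabetic libraries.

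**Figure D4:**
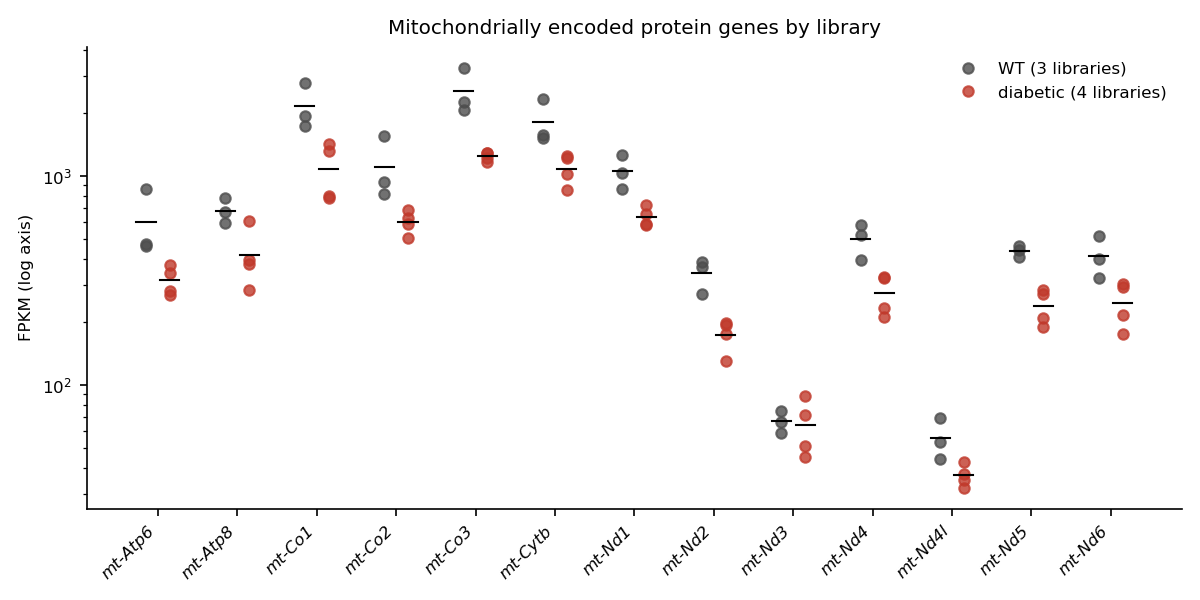
FPKM of the 13 protein genes of the mitochondrial genome in each WT and diabetic library (1 point per library, log vertical axis). In 11 of the 13 genes all diabetic points lie below all WT points.

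Of 77 tested nuclear genes of the respiratory chain, 1 fell and 70 had a difference below 0, with a median of −0.21 (−0.13 without diabetic replicate 1). Library medians of deviations from the WT mean ran from −0.30 to 0.52 in WT and from −0.47 to −0.10 in diabetic libraries. The share of all FPKM was 1.59, 1.01 and 0.97% in WT and 0.909 to 1.06% in diabetic libraries. Thus WT replicate 1 alone lay above the diabetic range, and the count of 70 is no measure of a shared fall. *Cox6a2*, the heart and muscle form of a cytochrome c oxidase subunit, was the 1 that fell, from 124, 152 and 148 FPKM to 20.1, 37.0, 26.4 and 40.5 FPKM. The groups were well separated (log2 difference −2.20, standard error 0.34, adjusted p = 0.00915), with 10.3% of its exon bases shared with a gene on the opposite strand. None of 77 mitochondrial ribosomal protein genes and none of 34 genes of the TCA cycle and anaplerosis passed by limma, with 4 and 3 at an unadjusted p of at most 0.05. *Idh2*, the mitochondrial NADP-dependent isocitrate dehydrogenase, was at 79.6, 42.2 and 48.0 FPKM in WT and 19.3, 26.9, 24.6 and 32.7 in diabetic libraries, without overlap (−1.07, adjusted p = 0.175). The citrate synthase *Cs* differed by 0.10 (adjusted p = 0.893) and pyruvate carboxylase *Pcx* by −0.51 (adjusted p = 0.522). *Ppargc1a*, which encodes the coactivator PGC-1α of mitochondrial biogenesis, rose from 1.20, 0.210 and 0.570 FPKM to 4.64, 4.30, 4.97 and 3.32 FPKM. All 4 diabetic libraries were above 3 FPKM and all WT libraries under 1.5 (log2 difference 1.71, standard error 0.28, adjusted p = 0.0140). In glycolysis, *Aldoc*, an aldolase, was the 1 of 19 tested genes that passed, falling from 6.02, 4.20 and 4.30 FPKM to 1.42, 0.793, 1.996 and 1.83 FPKM (−1.23, adjusted p = 0.0177).

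Genes of the mTOR complexes and of protein synthesis did not pass at the level of RNA. None of 36 tested genes for mTORC1 and mTORC2 components and regulators passed by limma (1 at an unadjusted p of at most 0.05), and their median difference was −0.01. *Mtor* was at 1.74, 3.05 and 2.52 FPKM in WT and 3.54, 2.91, 2.25 and 1.501 in diabetic libraries, with overlap (0.03, adjusted p = 0.980). *Eif4ebp1*, the translation repressor that mTORC1 phosphorylates, ranged from 27.4 to 151 FPKM in WT and from 27.6 to 146 in diabetic libraries (0.36, adjusted p = 0.905). The autophagy kinase *Ulk1* differed by 0.36 (adjusted p = 0.666). None of 43 translation factors (median 0.11, 4 at an unadjusted p of at most 0.05) and none of 78 cytosolic ribosomal protein genes (median 0.12, likewise 4) passed. Among them the elongation factor *Eef1a1* differed by 0.64 (adjusted p = 0.271) and the cap-binding factor *Eif4e* by 0.00 (adjusted p = 0.9999). Targets of ATF4, the factor of the amino-acid response, were close to the level of all genes, with 0 of 43 past the test, 1 at an unadjusted p of at most 0.05 and a median of 0.04. *Atf4* itself differed by −0.17, *Asns* by 0.19, *Trib3* by 0.27 and the leucine transporter gene *Slc7a5* by 0.53 (adjusted p = 0.862, 0.866, 0.930 and 0.730).

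In the ER, 33 of 39 tested genes for chaperones and the unfolded protein response had a difference above 0, with a median of 0.27 (0.29 without diabetic replicate 1), and 1 passed. *Dnajb9*, a J-domain co-chaperone of BiP, was at 111, 154 and 137 FPKM in WT and 313, 308, 366 and 339.6 FPKM in diabetic libraries. The lowest diabetic library was far above the highest WT library, and the call held without diabetic replicate 1 (log2 difference 1.31, standard error 0.23, adjusted p = 0.0177, and 1.34 with an adjusted p of 0.0467) but not without WT replicate 1 (adjusted p = 0.0686). *Eif2ak3*, the stress kinase PERK, was at 12.9, 7.81 and 11.97 FPKM in WT and 25.1, 21.3, 18.8 and 16.2 in diabetic libraries without overlap (0.85, adjusted p = 0.154). *Creld2*, a secreted ER protein, differed by 0.82 (adjusted p = 0.319), the chaperone *Hspa5* by 0.22 (adjusted p = 0.862) and *Xbp1* by 0.24 (adjusted p = 0.728). *Tmed6*, of the p24 family of ER cargo proteins, rose from 29.9, 16.1 and 14.5 FPKM to 66.0, 64.7, 128 and 70.0 FPKM. Diabetic replicate 3 was the highest, and no value overlapped (1.98, adjusted p = 0.0251). None of 13 heat shock genes passed (1 at an unadjusted p of at most 0.05). *Hspa1a* ranged from 174 to 1130.0 FPKM in WT and from 13.9 to 1023 in diabetic libraries (−0.80, adjusted p = 0.905). *Hspa4l*, an HSP110-type co-chaperone, rose from 5.25, 5.02 and 5.0 FPKM to 9.21, 9.22, 10 and 14.6 FPKM (0.93, adjusted p = 0.0392).

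Of 33 tested genes of cholesterol and fatty-acid synthesis, 28 had a difference below 0, with a median of −0.46 (−0.43 without diabetic replicate 1), and 1 fell. *Scd2*, a stearoyl-CoA desaturase, was at 36.9, 34.1 and 54.6 FPKM in WT and 14.2, 17.2, 16 and 21.0 FPKM in diabetic libraries, without overlap (log2 difference −1.23, standard error 0.22, adjusted p = 0.0251). *Stard4*, a cholesterol transfer protein, was at 5.68, 3.34 and 5.24 FPKM in WT and 1.601, 1.85, 1.67 and 1.79 in diabetic libraries (−1.05, adjusted p = 0.0866). *Hmgcs1*, of the mevalonate pathway, was at 156, 87.0 and 126 FPKM in WT and 34.1, 32.5, 57.3 and 72.0 in diabetic libraries (−1.35, adjusted p = 0.298). The groups did not overlap in either gene. The regulators *Srebf1* and *Srebf2* differed by −0.54 and −0.24 (adjusted p = 0.474 and 0.785). *Lpl*, lipoprotein lipase, fell from 31.0, 21.7 and 17.9 FPKM to 10.6, 8.85, 8.24 and 9.53 FPKM (−1.22, adjusted p = 0.0376).

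Among 35 antioxidant genes and NRF2 targets, 2 fell and the median was −0.08. *Nqo1*, a quinone reductase, fell from 13.2, 11.7 and 9.64 FPKM to 3.89, 2.50, 3.45 and 4.15 FPKM, with the groups well apart (log2 difference −1.48, standard error 0.22, adjusted p = 0.00633). *Gstm2*, a glutathione S-transferase, fell from 9.90, 4.91 and 4.58 FPKM to 1.502, 1.499, 1.88 and 2.39 FPKM (−1.35, adjusted p = 0.0364). *Nfe2l2*, which encodes NRF2, differed by −0.22 (adjusted p = 0.666). *Txnip*, a glucose-responsive gene, ranged from 14.02 to 233 FPKM in WT and from 13.1 to 102 in diabetic libraries (−0.97, adjusted p = 0.817). Of 16 zinc transporters and metallothioneins, *Slc30a8* fell and *Mt3*, a metallothionein, rose from 3.11, 1.41 and 1.51 FPKM to 8.12, 10.6, 4.84 and 5.83 FPKM (1.47, adjusted p = 0.0433), while *Mt1* was at 3188, 353 and 467 FPKM in WT and 318, 834, 503 and 560.1 in diabetic libraries with WT replicate 1 far above the rest (−0.63, adjusted p = 0.779).

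*Gadd45g* (ENSMUSG00000021453, chr13:51846678-51848468), a stress-inducible gene that has been tied to DNA demethylation, fell from 332, 319 and 404 FPKM to 76.3, 81.1, 97.3 and 121 FPKM. The ratio of means was 3.75-fold lower in diabetic cells, and no diabetic library came near the WT range (log2 difference −1.91, standard error 0.23, adjusted p = 0.00254, and −1.82 without diabetic replicate 1). It was the 1 of 10 tested genes of DNA methylation and demethylation that passed. The methyltransferases *Dnmt1* and *Dnmt3a* differed by 0.06 and −0.45 (adjusted p = 0.960 and 0.557). Of 26 immediate early genes, *Egr4*, a zinc finger factor, fell from 8.03, 10.5 and 11.2 FPKM to 5.10, 0.524, 1.72 and 1.35 FPKM. Diabetic replicate 1 was the highest of its group and below WT (−1.96, adjusted p = 0.0376, and −2.34 without it). The median of the 26 was −0.47, with a wide spread: *Fos* ranged from 172 to 972 FPKM in WT and from 91.1 to 339 in diabetic libraries (−1.28, adjusted p = 0.696). *Jun* differed by −1.51, *Egr1* by −0.45 and *Arc* by −1.72 (adjusted p = 0.583, 0.869 and 0.205). In the clock, *Dbp*, an output gene, was the 1 of 17 that passed, falling from 26.9, 18.1 and 41.7 FPKM to 7.77, 3.39, 6.48 and 9.37 FPKM (−1.94, adjusted p = 0.0357), with 18.01% of its exon bases shared with an opposite-strand gene. The repressor *Cry1* was at 16.7, 12.7 and 20.7 FPKM in WT and 29.0, 34.2, 26.3 and 50.0 in diabetic libraries without overlap (1.001, adjusted p = 0.0727) and *Arntl*, which drives the clock with CLOCK, differed by 0.81 (adjusted p = 0.391). The time of day at collection is not given in the sources used here.

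Most of the genes that passed, 79 of 109, were in none of the 35 lists. Among those that rose, *Gc*, the vitamin D-binding protein, went from 41.3, 34.1 and 49.7 FPKM to 172, 178, 214 and 237 FPKM. All diabetic libraries were more than 3 times the highest WT library (log2 difference 2.24, standard error 0.24, adjusted p = 0.00154). *Tmem212*, a membrane protein gene, rose from 0.711, 0.470 and 0.824 FPKM to 8.44, 5.57, 9.40 and 5.85 FPKM (2.29, adjusted p = 0.00254) and *Wfdc16*, of the whey acidic protein family, from 0.130, 0.528 and 0.727 FPKM to 4.16, 5.13, 7.07 and 5.48 FPKM (2.15, adjusted p = 0.00335). *Sorcs2*, a sorting receptor, was under 0.5 FPKM in all WT libraries and at 3.81, 3.97, 4.48 and 2.43 in diabetic ones (1.99, adjusted p = 0.00585). *Gm2115*, a predicted gene, rose from 2.14, 1.65 and 2.25 FPKM to 23.2, 13.1, 23.2 and 15.2 FPKM (2.67, adjusted p = 0.01995). *Pappa2*, a protease that frees insulin-like growth factors, was at 0.668, 3.70 and 3.93 FPKM in WT and 40.8, 14.8, 12.5 and 9.67 FPKM in diabetic libraries, and its value in diabetic replicate 1 stood far above the others (2.38, adjusted p = 0.0420, and 1.96 with an adjusted p of 0.0843 without it). *Ache*, acetylcholinesterase, rose from 0.174, 0.293 and 0.321 FPKM to 2.38, 1.86, 3.32 and 2.50 FPKM (1.46, adjusted p = 0.00633) and the surface tetraspanin *Cd81* from 44.97, 68.9 and 68.7 FPKM to 139.6, 128, 152 and 129 FPKM (1.18, adjusted p = 0.0210). *Pamr1*, a secreted protease-like protein, rose by 1.32 (adjusted p = 0.00335) and *Cldn6*, a tight junction protein of embryonic epithelia, by 1.21 (adjusted p = 0.0277).

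Among those that fell, *Cd79a* (ENSMUSG00000003379, chr7:24897381-24902197), known as the signalling subunit of the B-cell receptor, had the largest fall on the log2(FPKM + 1) scale among the genes that passed, from 20.1, 8.20 and 9.22 FPKM to 0.510, 0.561, 0.199 and 0.552 FPKM. WT replicate 1 was highest and all 4 diabetic libraries were under 1 FPKM (log2 difference −3.12, standard error 0.31, adjusted p = 0.000736, and −3.14 without diabetic replicate 1). Its partner in B-cells, *Cd79b*, was at 0 in all 7 libraries. *T2* fell from 25, 16.6 and 11.8 FPKM to 0.655, 1.54, 2.42 and 4.96 FPKM (−2.57, adjusted p = 0.0177) and *Cyp4f39*, a fatty-acid hydroxylase of the P450 family, from 5.14, 8.05 and 12.5 FPKM to 0.291, 0.575, 2.31 and 0 FPKM (−2.50, adjusted p = 0.0177). *Adora2b*, an adenosine receptor, was at 115, 32.03 and 55.7 FPKM in WT and 8.11, 9.20, 9.41 and 21.6 FPKM in diabetic libraries, of which replicate 4 was the highest and still below WT (−2.31, adjusted p = 0.0327). *P2ry6*, a receptor for UDP, fell too (−1.34, adjusted p = 0.0411). *Fkbp1b*, which binds ryanodine receptors, fell from 266, 201 and 203 FPKM to 34.5, 51.1, 63.7 and 94.5 FPKM (log2 difference −1.94, standard error 0.30, adjusted p = 0.0103). *Car15*, a carbonic anhydrase, fell from 67.3, 73.7 and 91.5 FPKM to 30.8, 19.9, 16.2 and 10.5 FPKM (−2.03, adjusted p = 0.0164). *Tmsb15b2*, of the thymosin family, fell from 291, 141 and 115 FPKM to 31.2, 37.5, 18.2 and 51.3 FPKM (−2.34, adjusted p = 0.0327). In *Car15*, *Tmsb15b2* and *T2*, 65.7, 76.9 and 18.03% of the exon bases are shared with another gene on the same strand, and reads of overlapping genes cannot be told apart.

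The remaining falls of the largest size were *Gm28040* (−1.88, adjusted p = 0.0493), whose exons lie wholly inside another gene, and *2410021H03Rik* (−1.84, adjusted p = 0.0327). *Prss53*, a serine protease gene of high level, went from 579, 679 and 766 FPKM to 224, 213, 241 and 197 FPKM (−1.62, adjusted p = 0.00301), with 76.7% of its exon bases shared with another gene. *Tmem215* was among the most even of all, at 58.2, 64.3 and 60.4 FPKM in WT and 21.3, 23.1, 18.98 and 23.8 FPKM in diabetic libraries (−1.45, adjusted p = 0.00585). *Gad1*, which makes GABA, went from 20.1, 16.2 and 16.02 FPKM to 7.97, 7.06, 9.51 and 9.02 FPKM (−0.97, adjusted p = 0.0251) and *Maob*, monoamine oxidase B, from 131, 105 and 95.3 FPKM to 43.5, 31.7, 44.3 and 53.8 FPKM (−1.34, adjusted p = 0.0326). *Mslnl*, a relative of mesothelin, was at 2.19, 2.31 and 1.66 FPKM in WT and at or near 0 in all 4 diabetic libraries (−1.51, adjusted p = 0.00254). It reached 1 FPKM in the WT libraries alone, through which it entered the fit, so this p-value supports nothing by itself. With any WT library left out it was not tested. *Rpp25*, a subunit of RNase P, fell by 1.74 on the log2 scale (adjusted p = 0.00585) and *Mrln*, a micropeptide that inhibits the calcium pump of the ER, by 1.20 (adjusted p = 0.0376).

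Across the 35 lists, 18 held at least 1 gene that passed and 17 held none. Of all genes tested 0.969% passed, so a list is not set apart by holding none. Without WT replicate 1, 7 of the 18 still held one of these genes. Besides those given above, lists without one were lysosome and V-ATPase (41 tested, median 0.01), autophagy (36, 0.03), the Bcl2 family (13, −0.12), cell cycle (19, −0.19), antigen presentation (24, −0.27), ChREBP targets (16, −0.16), amino-acid transporters (17, −0.00) and proteasome subunits (37, −0.12). By limma at an unadjusted p of at most 0.05 these lists held 0 genes (autophagy and antigen presentation) to 5 genes (cell cycle and lysosome). Single genes of these lists included *Lamp1* (−0.33, adjusted p = 0.546) and *Ctsb* (0.04, adjusted p = 0.969) of the lysosome, *Sqstm1* of autophagy (0.43, adjusted p = 0.698), *Ccnd1* of the cell cycle (−0.07, adjusted p = 0.959), *B2m* (−0.10, adjusted p = 0.954) and *Irf1* (−0.59, adjusted p = 0.667). *Mki67* and *Bcl2* were below the level of the fit (exact permutation p = 0.486 and 0.0286, two-sided, 3 against 4 libraries), and *Bcl2* was at 0.0798, 0.352 and 0.250 FPKM in WT and 0.528, 0.367, 0.361 and 0.602 in diabetic libraries. The imprinted RNA *H19* was at 0 in all 7. Of the genes named above with no value given without diabetic replicate 1, the following missed the threshold without it: *2410021H03Rik*, *Adora2b*, *Aldoc*, *Cd81*, *Cldn6*, *Cyp4f39*, *Dbp*, *Gad1*, *Gm2115*, *Gstm2*, *Hspa4l*, *Lpl*, *Maob*, *Mrln*, *Mt3*, *P2ry6*, *Scd2*, *Tmed6* and *Tmsb15b2* (adjusted p from 0.0527 to 0.127).

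**Figure D5:**
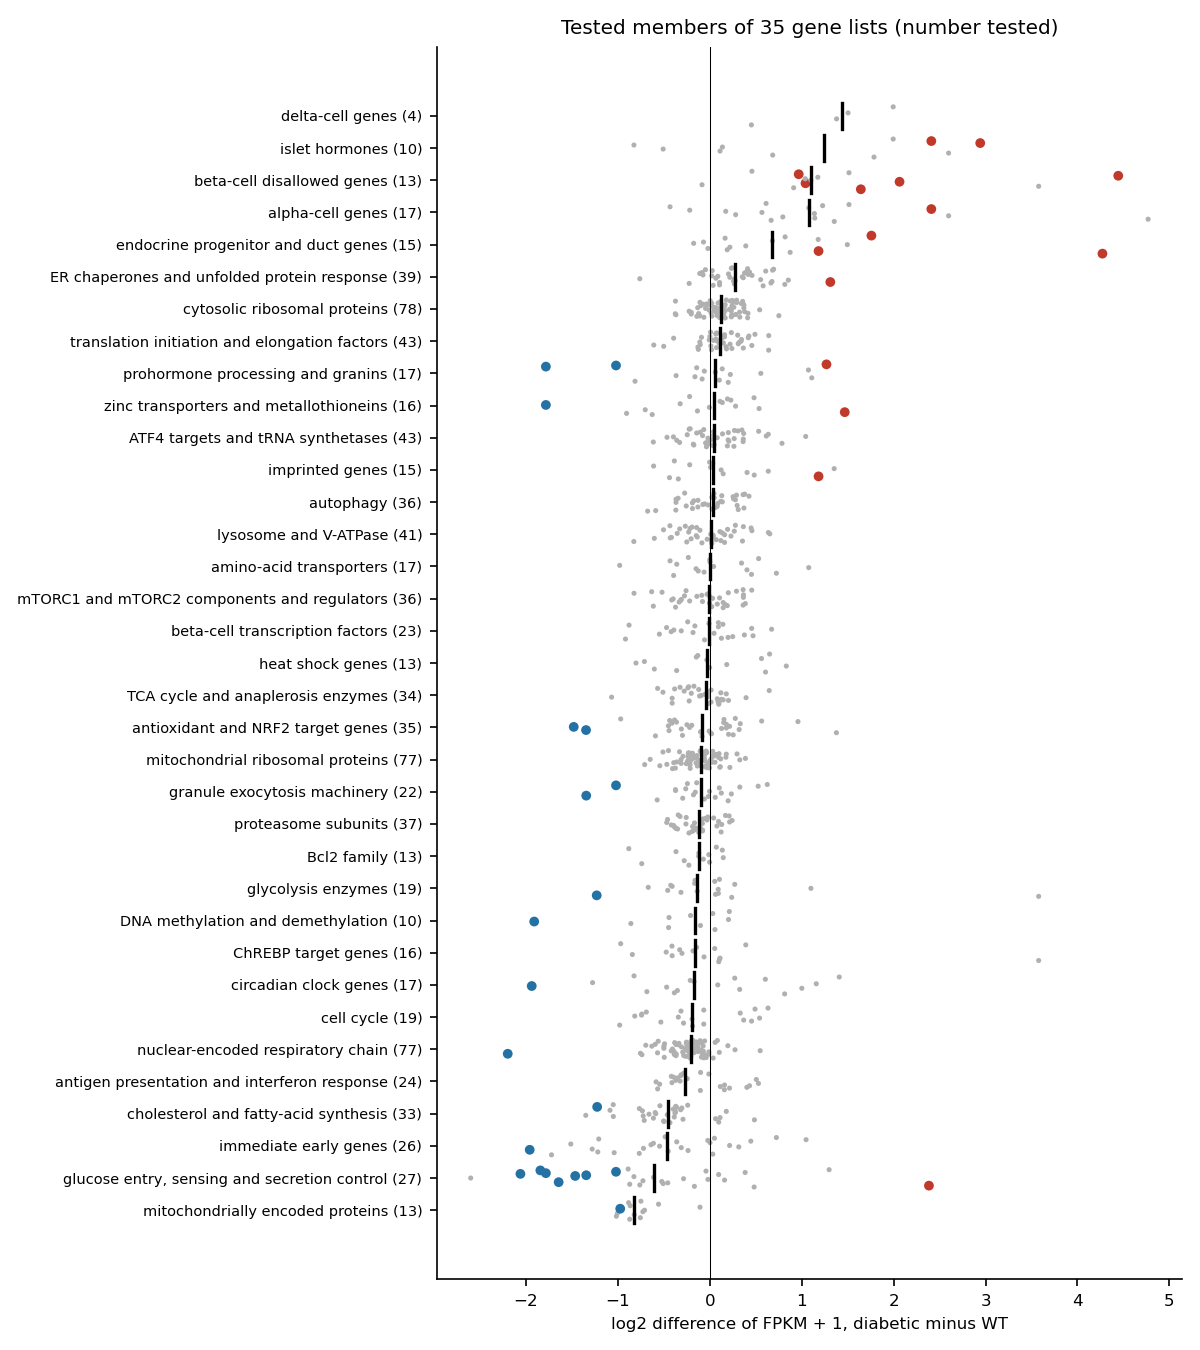
Log2 difference, diabetic minus WT, of each tested gene in the 35 lists (1 point per gene, horizontal axis, list median as a bar, genes that passed the test coloured). The lists of glucose entry and secretion, mitochondrially encoded proteins, immediate early genes and cholesterol and fatty-acid synthesis have medians below −0.4, and hormone, α-cell, δ-cell, progenitor and disallowed lists have medians above 0.6.

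The 109 genes were also read in the euglycemic libraries, which share Raptor deletion but came from mice given insulin. The comparisons of each mutant group with WT share the 3 WT libraries, so their values stand side by side only. Between diabetic and euglycemic libraries, 1 of the 109 passed the test, and it was the 1 gene that passed among all 11251 tested (0.00889%). This was *Esm1*, at 0, 0.353, 0.413 and 0 FPKM in euglycemic libraries, with a difference of 1.66 (adjusted p = 0.0498), but it entered the fit through the diabetic libraries alone, and its call was lost with the filter, the pseudocount or the scaling changed. *Plvap* was at 0.417, 1.57, 1.82 and 0 FPKM in euglycemic libraries (2.90 against diabetic, adjusted p = 0.0868) and *Sorcs2* at 0.699, 1.62, 0.685 and 0.0203 (1.47, adjusted p = 0.0846). *Car15* was at 79.6, 63.5, 92.5 and 38.6 FPKM, overlapping its WT range (−1.80, adjusted p = 0.0846), and *Gadd45g* at 235, 162, 134 and 185 FPKM, between the other groups (−0.92, adjusted p = 0.122). *Slc2a2* was at 29.6, 18.9, 24.5 and 14.1, *Slc30a8* at 309, 231, 339 and 232 and *Cd79a* at 0.453, 0.277, 1.10 and 0 FPKM in euglycemic libraries, overlapping the diabetic values given above. *Serpina7* (239.7, 252, 107 and 92.2 FPKM) and *Gc* (190.2, 270.0, 152 and 145 FPKM) overlapped their diabetic ranges as well. The endothelial marker sum was 0.767 to 3.33 FPKM in euglycemic libraries, near the WT range.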

How the data were processed

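Poly-A RNA of GFP+ sorted cells was measured in 11 libraries, of which 7 were compared. The authors deposited 1 FPKM value per gene and library. The study's methods name Tophat and Cufflinks on mm10, whereas the submitters' processing notes list HISAT2 2.0.4, StringTie 1.3.0, edgeR and mm10, so the upstream tools are uncertain, and the strandedness of the libraries is not given in the sources used here. Of 34745 entries, 34267 matched a symbol and 478 kept their identifier as the name. After 17 duplicates of a symbol were left out, 34728 remained. Positions and exon overlaps are from GENCODE vM21. Depth was inferred from whole multiples of a step in the low values of single-exon genes of at least 500 bases (94.6 to 97.3% whole within a tolerance of 0.02). Values behind few fragments carry counting error that the FPKM does not show.

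log2(FPKM + 1) was fitted with limma 3.58.1 in R 4.3.3 (lmFit, eBayes with a trend) on all 11 libraries without a covariate, over genes that reached an FPKM of 1 in 3 or more libraries, with Benjamini-Hochberg adjusted p of at most 0.05 and at least 1.5-fold as the call. Genes below this level were compared by exact permutation tests over 35 splits, two-sided. On simulated data for diabetic against WT with 11251 genes, 81 of 200 genes changed 2-fold and 183 of 200 changed 4-fold were recovered, with 8 and 12 false calls. The changed genes were drawn only from those with a mean log2(FPKM + 1) above 3, and the noise was independent between genes and libraries. The recovery therefore does not cover lower genes, and neither rate covers libraries that stand apart. Of the genes that rose, 24 had a WT mean under 1 FPKM. Lists are described by counts and medians, without a set test. The genes named are *Rptor*, the 15 largest rises and 15 largest falls, and called or preset members of 35 lists, with any other called gene. The members and lists were chosen with earlier results of these data known, and further genes without a call, such as *Etv1*, *Hmgcs1* and *mt-Nd5*, were named after their values were seen. Some genes that the rule or the lists hold are not reported here. Alternatives were other filters, a pseudocount of 0.1, TPM, the median of ratios, the 7 libraries alone, no trend, library weights, the replicate block, unadjusted p and leaving out each library. Promoter letters are from RefSeq (GRCm38.p6). Figures and lists used Python 3.11.15.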

Additional observations from a re-analysis of the deposited data

Results flagged for a closer look

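Among 189 genes named or listed, 16 had a diabetic library whose gap to the nearest of the other 3, divided by the range of the 4, was above Dixon's 95% critical value, and chance alone marks about 1 in 20 such groups of 4. The highest library stood apart for *2200002J24Rik* (1, the other 3 at 0), *Adora2b* (0.903), *Hspa4l* (0.852), *Pyy* (0.836), *Rerg* (0.835) and *Sumf1* (0.888), in each of which it was replicate 4. It was replicate 3 for *Tmed6* (0.915), and replicate 1 for *Inpp5f* (0.857), *Pappa2* (0.835), *Pecam1* (0.969) and *Kdr* (0.901). The lowest library stood apart for *Cd79a* (0.859), where it was replicate 3, for *Epb41l4a* (0.920) and *Cs* (0.866), where it was replicate 4, and for *Pcsk2* (0.832) and *Hhex* (0.861), where it was replicate 2. All of the called genes in this group kept their direction without diabetic replicate 1.

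The same ratio was 0.889 for the number of genes above 0 and 0.852 for the number of genes at 1 FPKM or more, both highest in diabetic replicate 1. It was 0.847 for the endothelial marker sum, also highest in replicate 1, and 0.912 for the β-cell marker sum, highest in replicate 2. These values were not tested for a cause.

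*Esm1* differed between the mutant groups by 1.66 on the log2 scale (diabetic minus euglycemic, adjusted p = 0.0498 from limma), higher in 4 of 4 diabetic than in any euglycemic library. It reached 1 FPKM in the diabetic libraries alone, through which it passed the filter on low values, so the difference supports nothing by itself.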

How the results depend on the processing

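All 109 genes kept their direction in each of 20 alternatives in which they were tested (other filters, pseudocounts, scalings and fits, and each library left out in turn), 14 were called in all 20 and 39 in fewer than 10 of them. The count of 109 became 22 with no filter, 551 with library weights, 45 with the replicate block and 929 (511 higher, 418 lower) with unadjusted p at the same fold. It ranged from 23 to 209 when each library was left out, with 34 without WT replicate 1, 23 without WT replicate 2, 26 without WT replicate 3, 44, 67 and 38 without diabetic replicates 1, 2 and 3, and 209 without euglycemic replicate 4. Deviations of same-numbered WT and diabetic libraries had correlations of −0.368 to 0.00516 across genes in 3 pairs, and those of unlike number −0.323 to 0.341. So few pairs cannot show whether libraries of the same number belong together, and 40 of the 109 remained with the replicate block. Among the 109, the 1 gene called between diabetic and euglycemic libraries became 0 with no filter, minimum FPKM 5, pseudocount 0.1, TPM, the median of ratios and the replicate block, 25 with library weights, 40 with unadjusted p, and 0 to 9 when each library was left out (9 without WT replicate 1, 2 without euglycemic replicate 4).

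List medians that moved by more than their spread between libraries were, for glucose entry and secretion, −0.76 at minimum FPKM 5, −0.74 at pseudocount 0.1, −0.53 with library weights and −0.50 with the replicate block. For progenitor and duct genes they were 0.30 at minimum FPKM 5, 0.89 at pseudocount 0.1, 0.96 with TPM and 0.43 with the replicate block, and for disallowed genes 1.85 at minimum FPKM 5, 2.34 at pseudocount 0.1 and 1.75 with TPM. The α-cell median was 1.47 at pseudocount 0.1 and that of DNA methylation −0.33 at minimum FPKM 5. Library weights gave 0.43 for ER chaperones, 0.08 for antioxidant genes and 0.05 for antigen presentation. With each library left out, medians ranged as follows: glucose entry and secretion −0.76 to −0.53, progenitor and duct genes 0.45 to 0.95, heat shock genes −0.21 to 0.47, antigen presentation −0.35 to 0.09, imprinted genes 0.01 to 0.16. The signs of medians near 0 therefore depend on the setting.

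Among named genes that did not pass, the sign of the log2 difference turned with the replicate block for *Mafa* −0.09, *Ins2* −0.02, *Pcsk1* 0.04, *Snap25* 0.05, *Ccnd1* 0.07. It turned with library weights for *Mafa* −0.56, *Ins2* −0.16, *Cpe* 0.14, *Snap25* 0.24, *Mtor* −0.11, *Eif4e* −0.06, *Atf4* 0.16, *Mt1* 0.16, *B2m* 0.23, *Dnmt1* −0.08. It turned with TPM for *Snap25* 0.07, *Ccnd1* 0.01. It turned with the median of ratios for *Snap25* 0.02. It turned with pseudocount 0.1 for *Eif4e* −0.02. With each library left out, the ranges of genes that turned were *Mafa* −0.68 to 0.46, *Ins2* −0.06 to 0.33, *Iapp* −0.01 to 0.33, *Cpe* −0.19 to 0.12, *Snap25* −0.13 to 0.17, *Mtor* −0.12 to 0.19, *Eif4ebp1* −0.09 to 1.12, *Eif4e* −0.28 to 0.51, *Atf4* −0.47 to 0.13, *Asns* −0.01 to 0.46, *Trib3* −0.48 to 1.01, *Ctsb* −0.10 to 0.21, *Mt1* −1.22 to 0.36, *Hspa1a* −1.66 to 0.68, *Ccnd1* −0.37 to 0.11, *B2m* −0.37 to 0.39, *Dnmt1* −0.18 to 0.23. The cause of these changes was not tested. Depth limits genes under about 1 FPKM, where few fragments stand behind a value, and this holds for the WT level of 24 of the 53 genes that rose, which could pass the filter through mutant libraries alone.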
